A study of Mus musculus with 15 samples.

Results

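The endothelial genes described here are 10 genes known from the cells that line blood vessels: Cldn5, Robo4, Tie1, Cdh5, Pecam1, Kdr, Flt1, Tek, Eng and Emcn. They were taken by name, each as the row whose Ensembl transcript maps to that gene, and they are 10 of the 12089 transcripts in the expression table. RNA-seq was made from mouse dental mesenchymal cells (mDMCs), which were isolated from the molar germs of ICR mouse embryos at embryonic day 14.5. There were 3 libraries of freshly isolated mDMCs (0 h), 2 libraries of mDMCs cultured for 12 h, 3 libraries each for 24, 36 and 48 h, and 1 library of dental mesenchymal tissue. No group carried a mutation, transgene or drug. The culture medium held fetal bovine serum (FBS), and enzymes had been used to part the mesenchyme from the epithelium and to free the cells, so the cells were a dissected mixture and were not sorted for any surface marker. The question was how far, and how fast, each of these genes fell once the cells left the embryo.

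The values are expression scores, whole numbers that had been brought to the same distribution in every library, with a median of 721, a maximum of 127101 and totals from 21357605 to 21365980. The depth of the libraries is therefore unknown. The 36 h libraries 1 and 2 differed far less than any other replicate pair, where the root mean square of the log2 differences over 4684 transcripts was 0.097, against 0.215 to 0.453 for the other 12 pairs. That is close to sampling noise, so they were averaged and counted as 1 sample, which leaves n = 2 at 36 h. The 0 h library 1 also stood apart. All 10 of the epithelial markers in the table were highest there among the 0 h libraries, at 4.67 to 15.4 times the mean of the other two. The endothelial genes in that library lay near those of its replicates, and without it 8 of the 10 were still lower than 0 h at every time in culture. As for the labelled cell type, all 11 dental mesenchyme markers had a row, with a summed score of 83608 to 99644 at 0 h and 48100 to 57147 at 48 h. A row alone does not show that a cell type is present, and the sum is weighted to the highest markers, Prrx1 and Pdgfra. Nothing in the labels says that replicates came from separate litters or cultures, so the p-values measure only the spread between these samples, which may be technical.

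Blood vessels enter the dental mesenchyme as the tooth germ grows. Their endothelial cells hold together through VE-cadherin (Cdh5) at adherens junctions, claudin-5 (Cldn5) at tight junctions, and PECAM-1 (Pecam1). The cells respond to VEGF through the receptor tyrosine kinases VEGFR2 (Kdr) and VEGFR1 (Flt1), and to angiopoietins through Tie2 (Tek) with its partner Tie1. Robo4 steadies the vessel wall, endoglin (Eng) is a co-receptor for ligands of the TGF-beta family, and endomucin (Emcn) is a sialomucin of the cell surface. Several of these genes are not limited to endothelium: endoglin is widely used as a marker of cultured mesenchymal stromal cells.

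The stretch just upstream of a gene's start is where much of its control is thought to sit, and ETS factors, which bind around a GGAA core, are well known in endothelial genes. Upstream windows from RefSeq (GRCm38.p6) were found for 8 of the 10 genes, all but Cdh5 and Pecam1. The windows of 5 genes are shown, 5′ to 3′ on the strand of the gene, because their scores ended at opposite ends of the range: Cldn5 and Tie1 were among those that fell furthest, Kdr fell in part, and Eng and Flt1 rose. Capitals mark the letters AGGAAG, on the printed strand or on its reverse complement. The same was done for the letters CGGAAG, again on both strands.
Cldn5 (chr16:18776597-18776846, plus strand): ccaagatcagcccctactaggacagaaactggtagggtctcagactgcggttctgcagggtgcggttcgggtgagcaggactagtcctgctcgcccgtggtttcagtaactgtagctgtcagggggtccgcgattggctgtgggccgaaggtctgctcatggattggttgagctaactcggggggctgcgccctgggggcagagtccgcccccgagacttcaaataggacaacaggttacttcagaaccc
Tie1 (chr4:118489850-118490099, minus strand): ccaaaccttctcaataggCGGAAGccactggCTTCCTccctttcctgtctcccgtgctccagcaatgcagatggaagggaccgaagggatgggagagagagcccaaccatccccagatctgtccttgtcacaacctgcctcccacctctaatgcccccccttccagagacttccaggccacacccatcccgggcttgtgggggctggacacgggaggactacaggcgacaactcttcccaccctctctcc
Kdr (chr5:75978459-75978705, minus strand): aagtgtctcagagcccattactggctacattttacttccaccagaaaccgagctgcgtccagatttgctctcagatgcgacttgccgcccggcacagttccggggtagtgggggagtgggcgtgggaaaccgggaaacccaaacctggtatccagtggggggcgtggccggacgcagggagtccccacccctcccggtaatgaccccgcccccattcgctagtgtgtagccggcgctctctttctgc
Flt1 (chr5:147726012-147726261, minus strand): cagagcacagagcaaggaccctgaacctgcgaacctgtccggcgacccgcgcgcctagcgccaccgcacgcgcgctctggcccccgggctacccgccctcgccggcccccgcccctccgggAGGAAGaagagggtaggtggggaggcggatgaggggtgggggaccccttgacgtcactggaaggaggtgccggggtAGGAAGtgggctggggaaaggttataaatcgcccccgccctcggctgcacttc
Eng (chr2:32646345-32646594, plus strand): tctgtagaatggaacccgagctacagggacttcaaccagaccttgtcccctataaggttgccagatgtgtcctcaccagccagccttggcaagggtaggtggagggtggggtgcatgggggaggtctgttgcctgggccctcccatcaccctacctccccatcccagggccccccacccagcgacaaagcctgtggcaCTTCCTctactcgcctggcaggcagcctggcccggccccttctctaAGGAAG

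One or other of these letter runs stood in 5 of the 8 windows (Robo4, Tie1, Flt1, Eng and Emcn), against 39.2% of all 32851 windows of mouse genes. The windows end at the RefSeq start, and the Robo4 match lay past the start of the transcript in the table, so 4 of the 8 held a match upstream of that transcript. The runs were present in both genes that rose and in Tie1 and Emcn, which fell, and absent from Cldn5, Kdr and Tek. The other motifs searched, on both strands, were GATAAG, with no match in the 8 windows and 6.55% of all windows, and TGTTTA, with no match and 12% of all. TATAAA stood in the Flt1 window only (12.4% of all), and GGGCGG stood in 3 of the 8 (32.7% of all). The GC content was 59.6% for Cldn5, 60.4% for Tie1, 61.6% for Kdr, 62.4% for Eng and 70.4% for Flt1, and 40.8% for Emcn, 49.6% for Robo4 and 51.2% for Tek. Thus 5 of the 8 windows lay above the median of 52.4% over all windows and the other 3 below it. A match is a run of letters, not a measured binding site.

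From freshly isolated cells to 48 h of culture, 8 of the 10 genes fell and 2 rose. Cldn5, Tie1, Robo4, Cdh5 and Pecam1 dropped to under 1% of their 0 h score, Emcn to 7.05% and Tek to 8.94%, while Kdr kept 20.2%. Flt1 and Eng went the other way and stood at 245% and 207% of the 0 h mean. In bulk RNA, fewer endothelial cells and less RNA per endothelial cell cannot be told apart. The test was a limma fit on log2(score + 1) over 12079 transcripts, with Benjamini-Hochberg adjusted p-values and a call at an adjusted p below 0.05, and changes on this scale understate the true change of low scores. At 48 h 33.5% of all transcripts were called lower and 36.5% higher, so a call by itself is common in these data. The median change of the 10 genes at 48 h was -5.69 on the log2 scale, and that of all transcripts was 0.03. In the 8 genes that fell, every cultured sample lay below every 0 h sample, which held for 22.7% of all transcripts. In Flt1 every cultured sample lay above, which held for 24.8%, and the groups overlapped for Eng.

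**Figure D1:**
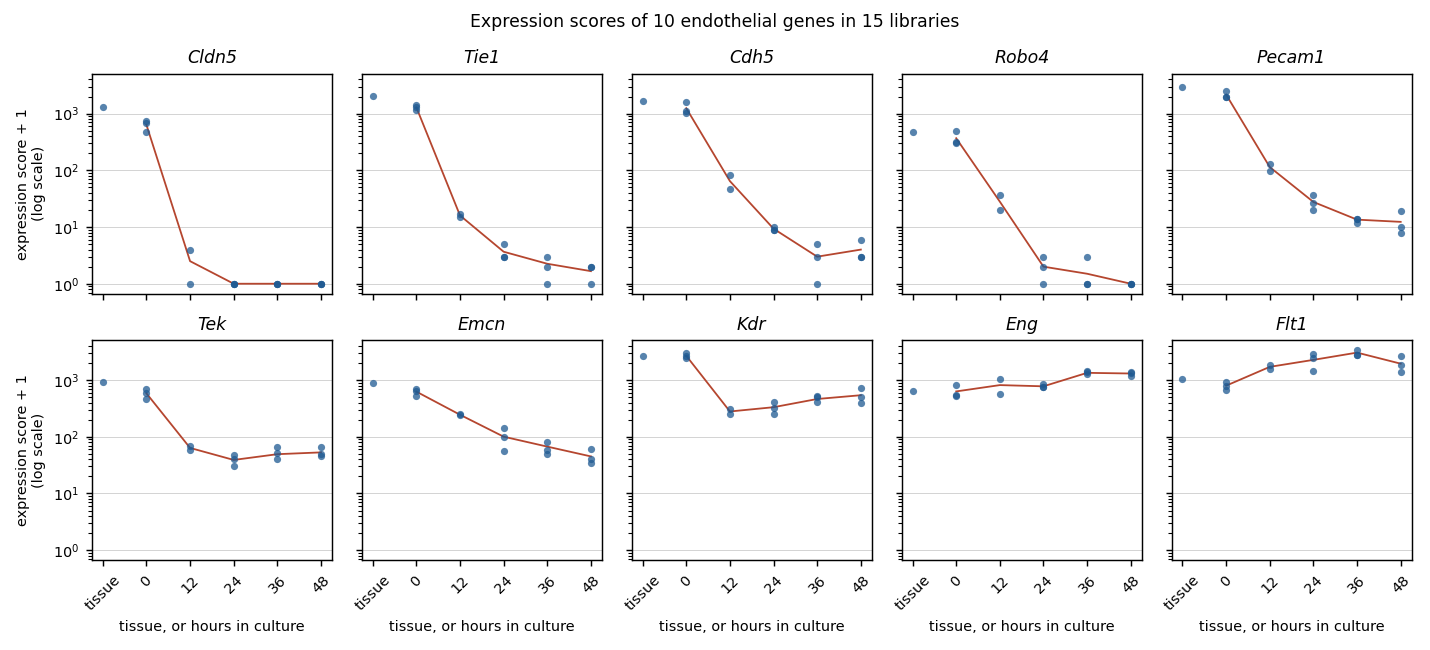
Expression scores (score + 1, log axis) of the 10 genes in each of 15 libraries: points are libraries, in tissue or at 0 to 48 h in culture, and the line joins the means of the cultured times and 0 h (the 36 h libraries 1 and 2 counted once). Cldn5, Tie1, Cdh5, Robo4 and Pecam1 drop towards the foot of the scale, Tek, Emcn and Kdr stop well above it, and Eng and Flt1 end higher than at 0 h.

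Among the genes of cell contacts, Cldn5 was at or near 0 in both libraries by 12 h. The row is the single-exon transcript at chr16:18776847-18778262 (GRCm38, plus strand). Its scores were 688, 745 and 468 at 0 h, 0 and 3 at 12 h, and it was listed at 0 in all 9 libraries from 24 to 48 h. No fold change is given for those times, since no cultured library from 24 h on held a value above 0. At 12 h the change was already -8.28 ± 0.68 (SE) on the log2 scale, with an adjusted p of 1.5e-06, and 0.237% of the 0 h mean was left. The size of that change is loose: it ran from -9.28 to -7.28 with single libraries left out, and was -5.79 with a pseudocount of 10 and -10.12 with 0.1. The tissue library held 1323, above every 0 h library.

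Cdh5, the cadherin of endothelial adherens junctions, fell in steps over 36 h. The transcript has 12 exons at chr8:104101625-104144511 on the plus strand. Cdh5 scored 1005, 1116 and 1610 in the 0 h libraries, 81 and 46 in those of 12 h, and 8, 9 and 8 in those of 24 h. By 36 h Cdh5 scored 4, 0 and 2, and at 48 h it scored 2, 2 and 5. The levels did not overlap between 0, 12, 24 and 36 h, while the 36 and 48 h libraries did. The change from 0 h was -4.30 ± 0.39 at 12 h (adjusted p = 3.5e-06) and -8.33 ± 0.35 at 48 h (adjusted p = 3.2e-09), both log2 with SE. Between 24 and 36 h the change was -1.64 ± 0.39 (adjusted p = 0.028), a call that was lost when either 36 h sample, the 24 h library 2 or the 24 h library 3 was left out.

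Pecam1, an adhesion protein of endothelium, platelets and white blood cells, was still detected in every cultured library. Its transcript has 14 exons at chr11:106654217-106715265 on the minus strand. Pecam1 scored 1984, 2544 and 1953 in the 0 h libraries, 129 and 97 in those of 12 h, and 25, 19 and 36 in those of 24 h. By 36 h Pecam1 scored 11, 13 and 13, and at 48 h it scored 9, 7 and 18. No cultured library was listed at 0, and the tissue held 2908. The change was -4.25 ± 0.36 at 12 h (adjusted p = 1.9e-06) and -7.54 ± 0.32 at 48 h (adjusted p = 3.5e-09).

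Emcn, the sialomucin, had the smallest change at 12 h of the 8 genes that fell. Its transcript has 12 exons at chr3:137341067-137432185 on the plus strand. Emcn scored 648, 703 and 521 in the 0 h libraries, 249 and 238 in those of 12 h, and 142, 100 and 56 in those of 24 h. By 36 h Emcn scored 48, 58 and 79, and at 48 h it scored 59, 40 and 33. At 12 h 39% of the 0 h mean was left and at 24 h 15.9%. The change was -1.34 ± 0.35 at 12 h (adjusted p = 0.0068) and -3.83 ± 0.32 at 48 h (adjusted p = 6.6e-07), and the groups at 24, 36 and 48 h overlapped.

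The 2 Tie receptors fell by different amounts. Tie1, an orphan receptor that works with Tie2, has a transcript of 22 exons at chr4:118471191-118489755 on the minus strand. Tie1 scored 1148, 1439 and 1282 in the 0 h libraries, 16 and 14 in those of 12 h, and 4, 2 and 2 in those of 24 h. By 36 h Tie1 scored 1, 0 and 2, and at 48 h it scored 0, 1 and 1. At 12 h 1.16% was left, a change of -6.33 ± 0.48 (adjusted p = 8.8e-07), and at 48 h the change was -9.66 ± 0.43 (adjusted p = 5.1e-09). With scores of 0 and 1 the latter size is set by the pseudocount, at -6.92 with 10 and -11.34 with 0.1. The tissue library held 2073.

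Tek, which encodes the angiopoietin receptor Tie2, dropped within 12 h and showed no further fall past the threshold. Its transcript also has 22 exons, at chr4:94739289-94874976 on the plus strand. Tek scored 582, 708 and 455 in the 0 h libraries, 67 and 58 in those of 12 h, and 29, 46 and 39 in those of 24 h. By 36 h Tek scored 65, 50 and 39, and at 48 h it scored 48, 64 and 44. All cultured libraries lay between 29 and 67 and the 12 h libraries overlapped the later ones. The change was -3.18 ± 0.28 at 12 h (adjusted p = 2.4e-06) and -3.45 ± 0.25 at 48 h (adjusted p = 2.1e-07). The difference between 12 and 48 h was -0.28 ± 0.28 and did not pass (adjusted p = 0.46).

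Robo4, the Roundabout receptor of endothelium, fell until it was listed at 0 in every library. The row is a 17-exon transcript at chr9:37401897-37414019 on the plus strand, which the annotation types as subject to nonsense-mediated decay; the rows of the other 9 genes are protein-coding transcripts. Robo4 scored 301, 489 and 311 in the 0 h libraries, 35 and 19 in those of 12 h, and 1, 0 and 2 in those of 24 h. By 36 h Robo4 scored 0, 2 and 0, and it was at 0 in all 3 libraries of 48 h. The change at 12 h was -3.74 ± 0.61 (adjusted p = 0.00029), with 7.36% left. The further change from 12 to 24 h was -3.88 ± 0.61 (adjusted p = 0.0051). It was -1.72 with a pseudocount of 10 and -5.40 with 0.1, and it missed the threshold without the 12 h library 1 (-3.46, adjusted p = 0.094). No fold is given for 48 h.

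The 2 VEGF receptors moved apart. Kdr, the main signalling receptor for VEGF-A, has a 30-exon transcript at chr5:75932827-75978458 on the minus strand. Kdr scored 2608, 2942 and 2466 in the 0 h libraries, 302 and 254 in those of 12 h, and 415, 323 and 255 in those of 24 h. By 36 h Kdr scored 518, 505 and 413, and at 48 h it scored 733, 498 and 386. The lowest libraries were those of 12 h and 1 of 24 h. The change was -3.26 ± 0.25 at 12 h (adjusted p = 9.2e-07) and -2.35 ± 0.22 at 48 h (adjusted p = 2.1e-06). Between 12 and 48 h Kdr rose by 0.91 on the log2 scale (adjusted p = 0.014), from 10.4% to 20.2% of its 0 h mean, and all 48 h libraries lay above both 12 h libraries.

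Flt1, whose product binds VEGF-A tightly but signals weakly and also exists in a secreted form, has a 30-exon transcript at chr5:147561604-147726011 on the minus strand. Flt1 scored 677, 795 and 912 in the 0 h libraries, 1840 and 1575 in those of 12 h, and 2925, 2436 and 1443 in those of 24 h. By 36 h Flt1 scored 2772, 2763 and 3325, and at 48 h it scored 2608, 1836 and 1386. No cultured library reached down to the highest 0 h library. The rise was 1.11 ± 0.29 at 12 h (adjusted p = 0.0068), 1.94 ± 0.29 at 36 h (adjusted p = 0.00011) and 1.25 ± 0.26 at 48 h (adjusted p = 0.0011). The call at 12 h was lost without the 12 h library 1, where the change was 0.997. The mean change of all cultured samples from 0 h differed between Kdr and Flt1 by -4.20 on the log2 scale (adjusted p = 0.00983, exact permutation test).

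Eng, the endoglin co-receptor, has a 15-exon transcript at chr2:32646595-32682658 on the plus strand and rose late. Eng scored 528, 538 and 822 in the 0 h libraries, 1057 and 570 in those of 12 h, and 746, 834 and 743 in those of 24 h. By 36 h Eng scored 1466, 1369 and 1261, and at 48 h it scored 1410, 1327 and 1173. The 12 and 24 h libraries overlapped those of 0 h, and all libraries of 36 and 48 h lay above them. The difference from 0 h was 0.33 ± 0.24 at 12 h (adjusted p = 0.26). It was 1.12 ± 0.24 at 36 h (adjusted p = 0.0015) and 1.08 ± 0.21 at 48 h (adjusted p = 0.00076). The 12 h value rests on 2 unlike libraries: it was -0.11 without library 1 and 0.78, then past the threshold, without library 2.

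**Figure D2:**
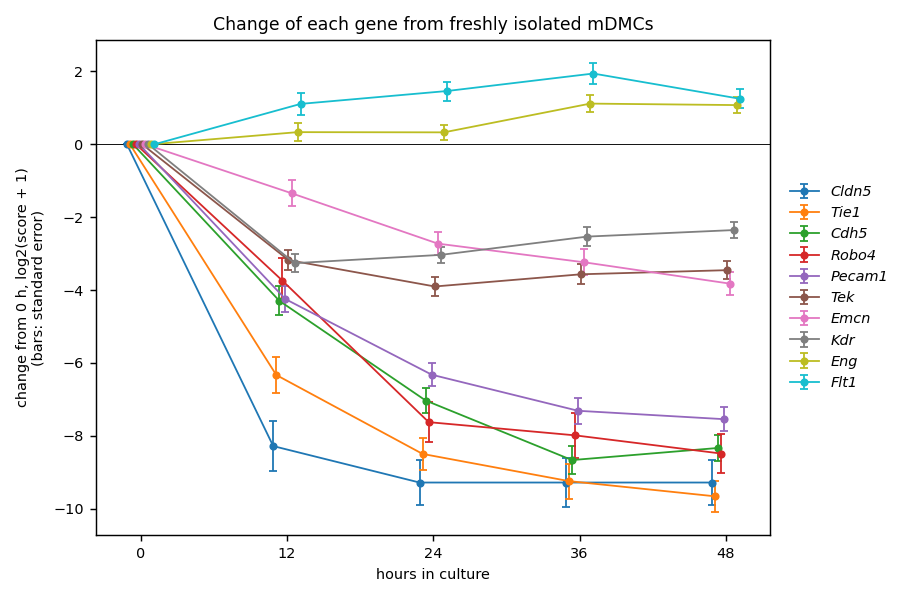
Fitted change of each gene from 0 h on the log2(score + 1) scale at 12, 24, 36 and 48 h, with standard errors; points are shifted sideways to keep them apart. Eng and Flt1 lie above 0, Kdr, Tek and Emcn between -4 and -1, and the other 5 genes below -7 from 36 h on; the values for Cldn5 from 24 h and Robo4 at 48 h stand for libraries listed at 0 and depend on the added 1.

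By 12 h the median change of the 10 genes was already the larger part of that at 48 h, but on the log2 scale Emcn (-1.34 of -3.83) and Eng (0.33 of 1.08) had made the smaller part of theirs, and Robo4 changed by -3.74 up to 12 h and by a further -3.88 up to 24 h. At 12 h 8 genes were lower than at 0 h and 1, Flt1, was higher, where 27.5% of all transcripts were lower and 28.7% higher. At 24 h the counts were again 8 lower and 1 higher (31.1% and 34.1% of all transcripts), and at 36 h they were 8 lower and 2 higher (31.4% and 33.5%). The median change of the 10 genes was -3.50 at 12 h, -5.11 at 24 h and -5.44 at 36 h. Between 12 and 24 h 5 genes fell further (Robo4, Cdh5, Tie1, Pecam1 and Emcn) and limma called none higher, against 2.78% and 3.69% of all transcripts, with 6 of the 10 and 2775 of all at an unadjusted p below 0.05 in either direction. This count rests on few libraries: it was 0 without the 12 h library 1, and 3 without the 12 h library 2 or the 24 h library 2. Without the 12 h library 1, which left 1 library at that time, the changes were -3.46 for Robo4, -2.33 for Cdh5, -2.08 for Tie1, -1.87 for Pecam1 and -1.35 for Emcn. Between 24 and 36 h 1 gene, Cdh5, fell and limma called none higher, against 3.96% and 5.15%, with 3 of the 10 and 3305 of all at an unadjusted p below 0.05. The count was 0 with a pseudocount of 10 and without the 24 h library 2, the 24 h library 3 or either 36 h sample. With the 36 h libraries 1 and 2 kept apart it was 2, Cdh5 (-1.92, adjusted p = 0.023) and Pecam1 (-1.01, adjusted p = 0.040). Eng was then called higher (0.82, adjusted p = 0.017). That fit counts those near-identical libraries as 2 samples. With them averaged, Eng changed by 0.79 and was not called (adjusted p = 0.061). It was called with them averaged when the 0 h library 3 was left out (adjusted p = 0.037). Between 36 and 48 h limma called none of the 10 genes and 0% of all transcripts, with 1 of the 10 (Flt1) and 1107 of all transcripts at an unadjusted p below 0.05.

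The rate after 12 h was measured as the slope per 12 h through the 10 cultured samples. It passed the threshold below 0 for 5 genes, against 22.3% of all transcripts: Robo4 at -1.46 ± 0.19, Cdh5 at -1.38 ± 0.12, Pecam1 at -1.09 ± 0.11, Tie1 at -1.07 ± 0.15 and Emcn at -0.80 ± 0.11 (log2 per 12 h ± SE; adjusted p from 1e-05 to 0.00023). The values below 0 depend on the pseudocount: with 10 in place of 1 all 5 were still called, but the slopes were -0.83 for Pecam1, -0.80 for Cdh5, -0.72 for Emcn, -0.56 for Robo4 and -0.39 for Tie1, and with 0.1 that of Robo4 was -2.49, so no order among the 5 is read from them. The slope passed the threshold above 0 for 2 genes, against 22.1% of all transcripts: Kdr at 0.32 ± 0.08 (adjusted p = 0.0067) and Eng at 0.30 ± 0.08 (adjusted p = 0.0074). The Eng slope was 0.17 without the 12 h library 2 and was then not past the threshold. Tek had a slope of -0.05 ± 0.09 and Flt1 of 0.09, neither past the threshold, and Cldn5 had almost nothing left to lose. From 12 to 48 h as a pair of groups, 5 genes were lower and 2 higher (19.5% and 19.9% of all transcripts).

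The change in the first 12 h was then set against the later slope in one contrast. It was more negative than the slope for 7 genes and more positive for 1, Flt1, against 23.5% and 25% of all transcripts. The gap was -7.98 ± 0.83 for Cldn5, -5.26 ± 0.58 for Tie1, -3.58 for Kdr, -3.16 ± 0.44 for Pecam1, -3.13 ± 0.34 for Tek, -2.92 ± 0.48 for Cdh5 and -2.28 ± 0.74 for Robo4, with adjusted p from 3.5e-06 to 0.023. Robo4 missed the threshold without the 0 h library 2 or either 12 h library (adjusted p from 0.052 to 0.20), with a pseudocount of 0.1 (-1.29, adjusted p = 0.56) and with the replicate block (adjusted p = 0.051), which leaves 6 genes. The Flt1 gap was 1.02 ± 0.35 (adjusted p = 0.032). It missed the threshold without the 0 h library 1 (0.91, adjusted p = 0.073) or the 0 h library 2 (1.02, adjusted p = 0.057). With 1 library left at 12 h the Flt1 gap was 0.87 or 1.16. Emcn was the exception among the genes that fell, with a gap of -0.55 ± 0.43 that did not pass (adjusted p = 0.31). A later slope near 0 is also what a gene with scores close to 0 must have, which touches Cldn5, Tie1, Robo4 and Cdh5.

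**Figure D3:**
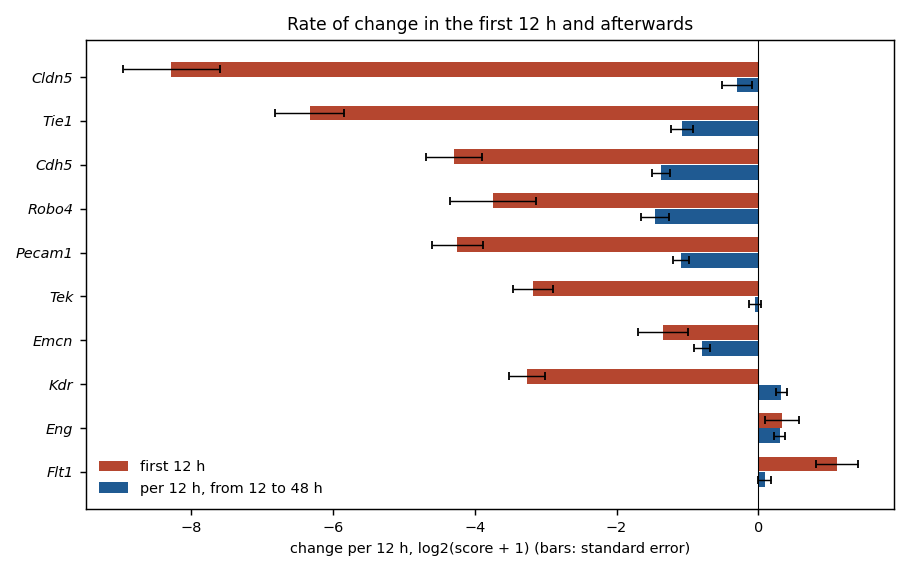
Change per 12 h on the log2(score + 1) scale for each gene, with red bars for the first 12 h and blue bars for the slope from 12 to 48 h, and standard errors. The red bar is the longer for all genes that fell, Kdr turns from -3.26 to 0.32, and Emcn has the 2 bars nearest in length among the genes that fell.

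The losses were ranked by the mean change of all cultured samples from 0 h. The order was Cldn5 at -9.08, Tie1 at -8.56, Cdh5 at -7.20, Robo4 at -7.18, Pecam1 at -6.47, Tek at -3.56, Emcn at -2.88 and Kdr at -2.78, then Eng at 0.71 and Flt1 at 1.42, all log2. The order among the first 5 depends on the 1 added to each score: with 10 added, Tie1 was at -6.59, Cdh5 at -5.95, Cldn5 at -5.94, Pecam1 at -5.92 and Robo4 at -4.78, still all below Tek at -3.33. Of the 45 pairs of genes, 38 differed in loss by a two-sided exact permutation test over the 286 ways to divide the 13 samples, with p-values adjusted over the 45 pairs. The smallest p this design allows is 0.00699, which is 0.00983 after adjustment. Tie1 fell by more than Tek, its partner receptor (-5.01, adjusted p = 0.00983), and by more than Cdh5 (-1.36, adjusted p = 0.018). The genes form an upper group of losses from Cldn5 to Pecam1 and a lower group of Tek, Emcn and Kdr, and every pair drawn across the 2 groups differed.

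Most neighbours in that order were not shown to differ. The 7 pairs that missed the threshold were Cldn5 and Tie1 (-0.52, adjusted p = 0.446), Robo4 and Cdh5 (0.02, 0.958), Robo4 and Pecam1 (-0.71, 0.200), Cdh5 and Pecam1 (-0.73, 0.0708), Kdr and Tek (0.78, 0.0565), Kdr and Emcn (0.11, 0.958) and Tek and Emcn (-0.67, 0.345), where the second value is the adjusted p of the exact test. Even so, Kdr and Emcn reached their like mean losses by unlike courses: their slopes from 12 to 48 h differed by 1.08 log2 per 12 h (adjusted p = 0.00165, 100000 permutations of the 10 cultured samples). In all, 29 of the 45 pairs differed in that slope, among them Tie1 and Tek (-0.99, adjusted p = 0.00381) and Kdr and Flt1 (0.27, adjusted p = 0.0403). These permutations do not allow for the correlation between 24 and 48 h libraries of the same replicate number. Pairs with Cldn5, Robo4, Tie1 or Cdh5 depend on the added 1. Cldn5 was at 0 in every library from 24 h on. At 48 h Robo4 was at 0, Tie1 at 0, 1 and 1, and Cdh5 at 2, 2 and 5.

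**Figure D4:**
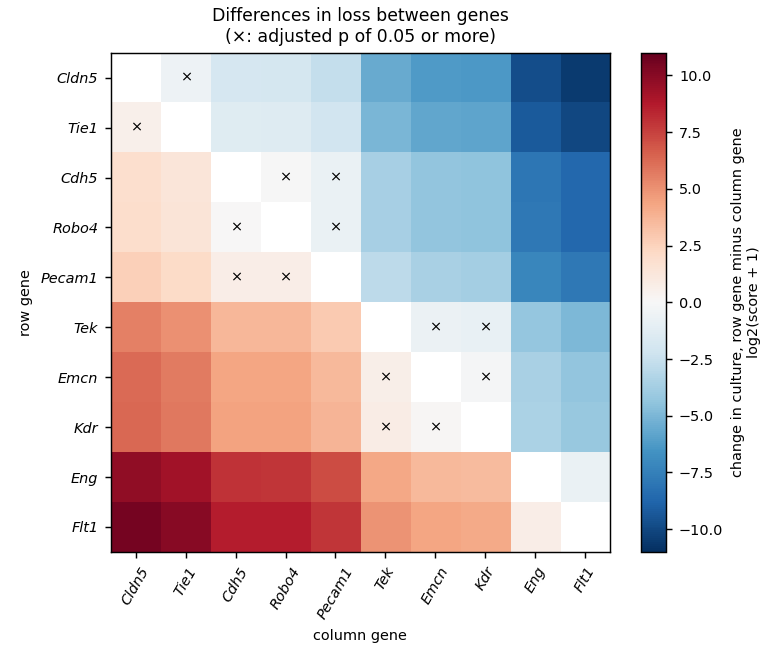
Difference in loss between each pair of genes (row gene minus column gene, log2(score + 1), mean of the cultured samples against 0 h), in the order of loss. Blue means that the row gene lost more, and a cross marks the 7 pairs with an adjusted p of 0.05 or more, all of them inside the groups Cldn5 to Tie1, Cdh5 to Pecam1 or Tek to Kdr.

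The tissue library gives the level before the cells were freed. It lay above every 0 h library for 7 of the 10 genes, which held for 29.7% of all transcripts, and within the 0 h range for Robo4 (465), Kdr (2664) and Eng (644). For Cldn5 it was 1323 against 468 to 745, for Tie1 2073 against 1148 to 1439, and for Tek 941 against 455 to 708. Flt1, at 1046, Emcn, at 902, and Cdh5, at 1655, were above by smaller margins. Other cell markers differed in the tissue too: the macrophage sum was 3809 against 1514 to 2470 at 0 h, and the dental mesenchyme sum 69705 against 83608 to 99644, and their part in the difference was not tested. There was 1 tissue library, with no replicate of its own, and its differences from 0 h were not tested.

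Lists of partner genes were counted at 48 h, when 33.5% of all transcripts were lower and 36.5% higher, and the share of the junction list that fell lay near the first of these. Among the ligands and other receptors of the VEGF and angiopoietin systems, 5 of 9 fell at 48 h and 2 rose, with a median of -0.39. Angpt1, the activating ligand of Tie2, fell by 2.87 (adjusted p = 1.8e-08) from 2580 to 3721 at 0 h to 428 to 466 at 48 h. Angpt2, its context-dependent antagonist, rose by 4.55 (adjusted p = 2.7e-06) from 40 to 76 to 1176 to 1450, so the ligands of Tek went opposite ways as Tek fell. Vegfa fell by 0.95, the lymphatic receptor Flt4 fell by 1.63, and Vegfc, a ligand of Flt4, rose by 0.41.

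In the Slit and Robo list 3 of 5 fell and 1 rose (median -0.46): Robo1 (-2.62), Slit3 (-0.64) and Robo2 (-0.46) fell, and Slit2, a secreted guidance ligand, rose by 1.52. Of the receptors, Smads and response genes tied to endoglin, 5 of 11 fell and 2 rose (median -0.30). The 2 that rose were Acvrl1, the receptor ALK1 that acts with endoglin, by 2.19, from 912 to 1090 at 0 h to 4084 to 5074 at 48 h, and Id3, a response gene, by 0.63. Smad5 (-1.46), Tgfbr1 (-0.99) and Tgfbr2 (-0.54) fell. Thus Eng and Acvrl1 both ended higher in every 48 h library than in any 0 h library.

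Of the junction partners 4 of 12 fell and 5 rose (median 0.17). Esam, an adhesion molecule of endothelial tight junctions, fell by 5.86 (492 to 705 at 0 h, 6 to 12 at 48 h), and F11r, a further adhesion molecule, fell by 3.18. Ptprb, the phosphatase VE-PTP that partners VE-cadherin and Tie2, rose by 3.70 from 172 to 226 to 2525 to 2793. Jam2 rose by 3.13 and the claudin Cldn12 by 2.90.

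Among endothelial transcription factors 8 of 11 fell and 2 rose (median -1.18). Sox7, of the SoxF family, fell by 6.56, Tal1 (-5.62) and Lmo2 (-4.63), factors shared with blood progenitors, also fell, while Ets1 rose by 0.84 and Elk3 by 0.64. Of 33 other genes known from endothelium 24 fell and 4 rose, with a median of -3.51. Aplnr, the apelin receptor, fell by 9.32. Rasip1, needed for the vessel lumen, fell by 8.27, and Plvap, of endothelial fenestrae, fell by 8.01 (615 to 767 at 0 h, 1 or 2 at 48 h). Procr, the protein C receptor, rose by 2.68, S1pr1 by 1.25 and Mcam by 1.17. Over these 6 lists, 49 of 81 genes fell and 16 rose at 48 h, against 33.5% and 36.5% of all transcripts, with a median of -0.86. Genes of these lists with no row, Erg, Sox17 and Sox18 among them, were not analysed here.

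Markers of other cells in the dissected tissue also moved. At 12 h, when 27.5% of all transcripts were lower and 28.7% higher, all 9 red blood cell genes, 5 of 7 macrophage genes, 5 of 7 mural cell genes and 1 of 10 epithelial genes were lower. The epithelial markers were spread widely at 0 h by library 1, so a missed call there does not show that they stayed level. Without that library 1 of 10 epithelial genes was lower and 1 higher, and 3 of 7 macrophage genes were lower. The counts at 48 h stand against 33.5% of all transcripts lower and 36.5% higher. All 9 red blood cell genes fell, with a summed score of 98239 to 151173 at 0 h, 365 to 459 at 12 h and 52 to 168 at 48 h, led by the globin genes Hbb-bt (-11.37), Hba-a2 (-11.11) and Hbb-y (-10.73). Of the macrophage genes 6 of 7 fell (sum 1514 to 2470 at 0 h, 421 to 485 at 48 h), led by Mrc1 (-3.25), C1qa (-3.05) and Csf1r (-2.50). Of the mural cell genes, which mark pericytes around the vessels, 4 of 7 fell and 1 rose (sum 11585 to 14952, then 10941 to 13000). Kcnj8 (-5.49), Abcc9 (-5.12) and Rgs5 (-3.94) fell and Cspg4 rose by 1.64.

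Of the epithelial genes 6 of 10 fell and 1 rose (sum 2126 to 17871, then 1969 to 3191), led by Krt15 (-8.82), Krt5 (-3.60) and Epcam (-3.14), with Perp up by 3.70. These falls lean on the 0 h library 1: without it 4 of 10 fell, with Krt15 at -7.75, Epcam at -2.20 and Krt5 at -2.48, which then missed the threshold (adjusted p = 0.12). Of the Schwann cell and neuron genes 1 of 6 fell (Erbb3, -2.29) and 2 rose (Stmn2, 3.32, and Mbp, 2.39; sum 818 to 1387, then 1122 to 1813). Of the dental mesenchyme genes 8 of 11 fell and none rose, led by Osr2 (-2.93), Pdgfra (-2.69) and Pax9 (-2.37). At 12 h 7 of the 11 were lower and 1, Dlx2, was higher. The part that the makeup of the cultures has in the result for the endothelial genes was not tested.

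**Figure D5:**
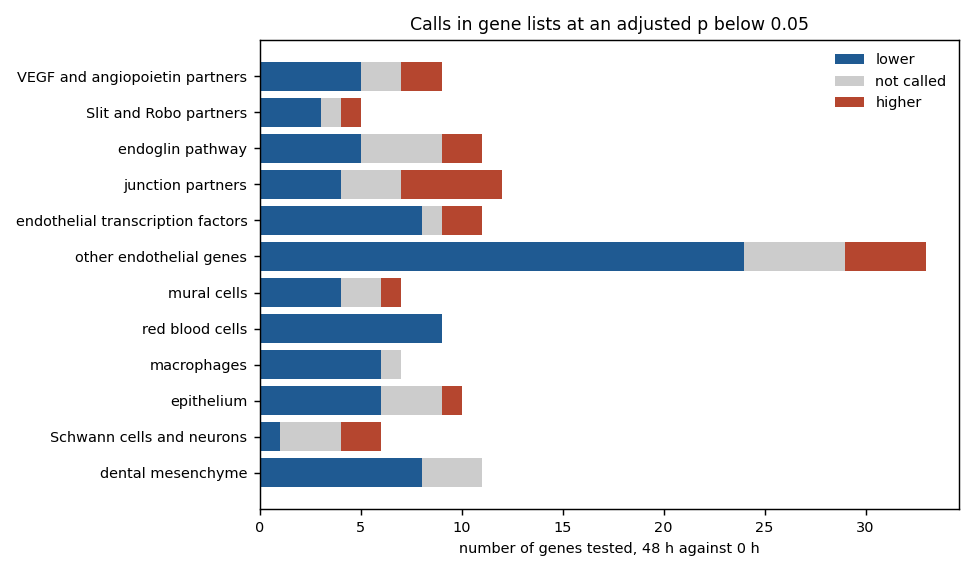
Number of genes in each list that were called lower (blue), not called (grey) or called higher (red) at 48 h against 0 h, at an adjusted p below 0.05. Red blood cell genes are all lower (9 of 9), 24 of 33 other endothelial genes are lower, and the junction partners are mixed, with 4 lower and 5 higher of 12.

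The 10 other transcripts nearest to the median course of the endothelial genes, by the root mean square log2 difference over the 10 cultured samples and the tissue, were those of Ntrk2 (0.52), Kif26a (0.53), Podxl (0.54), Klf14 (0.55), Sparcl1 (0.58), Spon1 (0.60), Col13a1 (0.61), ENSMUST00000113846 (0.63), Efnb3 (0.65) and Vill (0.65). The median distance over all transcripts was 4.92. Podxl, which encodes the sialomucin podocalyxin, went from a mean of 970.7 at 0 h to 23 at 48 h, and Sparcl1, a secreted matrix glycoprotein, from 2408 to 80.33. None of the 10 was in any list used here. The endothelial genes themselves lay from Pecam1 at 1.44 and Tek at 1.61 to Eng at 5.60 and Flt1 at 6.26 from that course. The 10 transcripts were picked as the nearest, so their smaller distances were set by that choice.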

How the data were processed

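RNA-seq of 15 mDMC and tissue libraries was analysed, grouped by the hours or tissue in the labels. The authors trimmed adaptors, aligned reads with bowtie to mm10, estimated expression with RSEM (version 1.1.21 per the labels' processing notes) and tested with DESeq2. The authors deposited 1 table of whole-number expression scores, named cpm. Library totals are above what CPM allows, the normalization is not given in the sources used here, and whether a score is of the transcript or the gene is not stated. Depth is unknown, so no interval for counting error is given, and scores of different genes were not compared as levels.

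Transcripts were matched by ID to GENCODE M21 (11973 of 12089; 116 unmatched). A floor of 1 ppm of a library's total, to be met by 2 or more libraries, kept 12079 transcripts, all 10 endothelial genes among them. log2(score + 1) was fitted in limma 3.58.1 (R 4.3.3) over the 0 to 48 h samples together, with empirical Bayes variances and a trend; the tissue stayed out. The plan was a fit of 14 libraries. After the files were seen, 36 h replicates 1 and 2 were averaged, giving 13 samples. Pairs of genes were compared with permutation tests in scipy 1.17.1. Named are the 10 genes, up to 3 rises and 3 falls per list, and the 10 nearest transcripts. Genes and lists were chosen with earlier results of these data known. In data simulated for 48 h against 0 h with 11826 genes, 93 of 100 genes changed 2-fold and 100 of 100 changed 4-fold were recovered, with 9 false calls among 11626. The simulated noise was the same for every gene, and the changed genes were not near the floor. These rates therefore do not carry over to scores close to 0. Alternatives were other pseudocounts and filters, each library left out, the replicate block, the tissue as start and the 14 libraries apart. Deviations from the group means were correlated between libraries of the same replicate number. All 3 pairs were over 0.1 only for 24 with 48 h (0.200 to 0.315) and for 24 with 36 h (0.126 to 0.165). The 24 and 48 h libraries are not compared as a pair of groups, but both enter the slope through the 10 cultured samples. For 24 with 36 h the averaged libraries leave 2 distinct partners. No comparison was treated as paired in the main fit. The permutation test of slopes also took the 10 cultured samples as exchangeable, so its p-values do not allow for these correlations.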

Additional observations from a re-analysis of the deposited data

How the results depend on the processing

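Among recomputed counts and shares, 254 stayed within 1.5 times the reported value or within its spread and 22 did not. Among changes of single genes from 0 h to 12 or 48 h and slopes, 581 kept their direction and side of the threshold, 2 lost the call, 1 gained it and 1 was reversed. A filter that asks for 1 ppm in all libraries removes by construction the genes listed at 0: 3 of the genes left were then lower than 0 h at 12, 24, 36 and 48 h, 1 fell from 12 to 24 h, 0 from 24 to 36 h and 1 from 12 to 48 h, 2 had a slower loss after 12 h, 1 had a falling slope, and 31 genes of the 6 endothelial lists were lower at 48 h. From 24 to 36 h the count was 0 with a pseudocount of 10 and 2 with the 36 h libraries 1 and 2 kept apart, as had been planned; averaging them was the choice made after seeing the data. With the tissue as the start, the median share left was 6.22% at 12 h and 2.63% at 48 h, against 8.88% and 3.79% from 0 h.

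Leaving out each library in turn kept 8 genes lower than 0 h at 12, 24, 36 and 48 h, and gave 0 to 5 from 12 to 24 h, 0 to 1 from 24 to 36 h, 5 to 5 from 12 to 48 h, 6 to 7 with slower loss, 45 to 51 in the 6 lists, 33 to 38 pairs differing in loss and 25 to 30 in slope. The change of Eng at 12 h was reversed, at -0.11, without the 12 h library 1 (-0.11 to 0.78 over the libraries left out). With the replicate block, in a fit with the 36 h libraries apart, 2 genes fell from 24 to 36 h, as without the block in that fit, and Kdr was called higher (0.55, adjusted p = 0.022), which it was not without the block (adjusted p = 0.090). In the fit with the block 6 genes had a slower loss after 12 h, against 7 (Robo4 missed the threshold, adjusted p = 0.051); the numbers of genes lower than 0 h, lower at 24 or 48 h than at 12 h and with a falling slope were those reported. Over all times 11 of 26 same-number pairs had correlated deviations over 0.1, and 11 of 14 libraries correlated best with their own number. A pseudocount of 10 or 0.1 left the falling slopes called in 5 genes but moved their sizes, and moved the log2 change at 48 h of genes with scores near 0 (-6.92 and -11.34 for Tie1). What limits precision is the number of libraries (2 at 12 h, and 2 samples at 36 h) and an unknown depth, which leaves scores of a few units without an interval.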
